A study of Bos taurus with 9 samples.

Results

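The circRNAs that had a TPM above 0 in all 9 libraries of LPS treated and untreated bovine mammary epithelial cells (bMECs) are described here. Of 3763 circRNAs listed in at least 1 library, 166 (4.41%) met this rule, and they were thus chosen by their TPM in these same libraries. The cells were MAC-T, an immortalized bovine mammary epithelial line, and nothing in the sources used here describes a genetic change shared by the groups. Cells of the 0 h group received no LPS, and cells of the other groups were kept in 50 ng/μL LPS until 6 hpi or 12 hpi, with 3 libraries in each group. Each time point was harvested from a 6-well plate of its own, so that an effect of the plate and one of the exposure time cannot be told apart. The labels call the 3 libraries of a group biological replicates without naming the wells, and the p-values measure the spread between these libraries only. TPM is here the number of reads across the back-splice junction of a circRNA per 1000000 such reads of the library, with no division by length.

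A circRNA is made by back-splicing, in which a downstream splice donor is joined to an upstream acceptor, so that the RNA has no free end. It is therefore resistant to exonucleases, and many circRNAs are long-lived and present at low levels beside the linear RNA of the same gene. LPS is a component of the outer membrane in Gram-negative bacteria. It is sensed by mammary epithelial cells through TLR4, and exposure to it is a common cell model of mastitis. The tables used here name each circRNA by a number alone, with no host gene, position or sequence. The roles of single circRNAs and the epithelial markers were therefore not checked here.

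The libraries differed in depth. The 0 h libraries held 3079, 2305 and 15314 listed junction reads in replicates 1, 2 and 3. The LPS libraries held between 6162 and 9747. The first 2 of the 0 h libraries were thus the shallowest of all 9, and the remaining 0 h library was the deepest. The smallest value listed in any library stood for 2 junction reads, which is 637 TPM in 0 h replicate 1, 857 TPM in 0 h replicate 2 and 129 TPM in 0 h replicate 3. Between 508 and 2020 circRNAs were above 0 in a library, and 376 were above 0 in all 7 libraries other than 0 h replicates 1 and 2. Detection in those 2 libraries therefore removed 210 circRNAs from the set, more than were kept.

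The rule has a sharp edge at 0. Just inside it, novel_circ_0006039 and novel_circ_0003221 had the lowest single values of the set, 194 TPM (3 reads) in 0 h replicate 3. Just outside it, 175 circRNAs were above 0 in 8 of 9 libraries. Of these, 60 were missing in 0 h replicate 1, 85 in 0 h replicate 2 and none in 0 h replicate 3, while the 6 LPS libraries each missed between 1 and 8. The most abundant circRNA outside the set was novel_circ_0000221, with 3503, 0 and 5370 TPM at 0 h, 6453, 7565 and 7560 TPM at 6 hpi, and 6323, 6636 and 4042 TPM at 12 hpi. It was listed at 0 only in 0 h replicate 2, and its mean of 5272 TPM would have placed it among the most abundant circRNAs of the set. Next came novel_circ_0002369, which had 7712 TPM in 0 h replicate 2 and was listed at 0 only in 0 h replicate 1.

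The set carried a large share of the junction reads for 4.41% of the circRNAs. In the LPS libraries the 166 circRNAs held 36.1%, 35.3% and 33.8% of the listed circRNA TPM at 6 hpi and 33.8%, 32.9% and 33.6% at 12 hpi. In the 0 h libraries they held 44.8% (95% Wilson interval 43.1% to 46.6%), 49.2% (47.2% to 51.3%) and 31.6% (30.9% to 32.4%), and these intervals cover counting error only. The 2 shallow 0 h libraries were above all others, and the deep 0 h library was below all others. The share was thus highest where the fewest reads were listed and lowest where the most were.

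**Figure D1:**
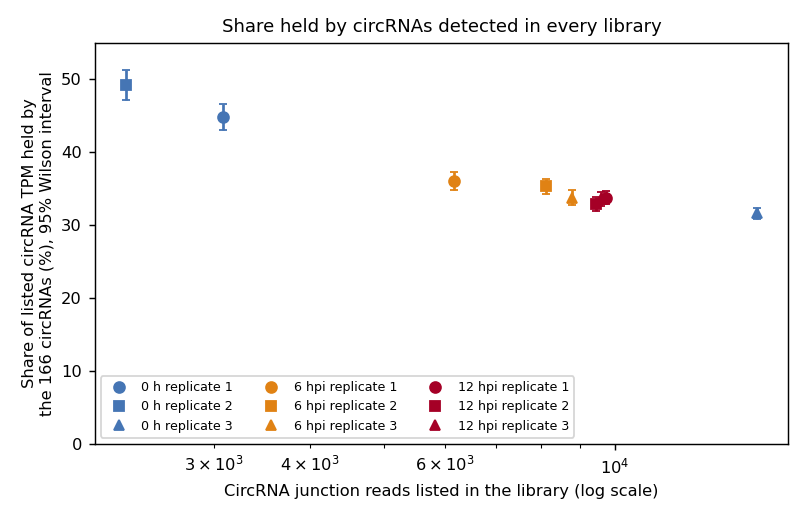
Share of listed circRNA TPM held by the 166 circRNAs (%, y axis, bars are 95% Wilson intervals) against the listed junction reads of each of the 9 libraries (x axis, log scale). The 0 h libraries lie at both ends, at 49.2% with 2305 reads and at 31.6% with 15314 reads, and the 6 LPS libraries lie between 32.9% and 36.1%.

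At 0 h the mean share was 41.9% ± 9.17 (SD, n = 3), compared with 35.1% ± 1.17 at 6 hpi and 33.4% ± 0.479 at 12 hpi (n = 3 each). The difference was −6.83 percentage points at 6 hpi and −8.49 at 12 hpi relative to 0 h (exact permutation test, two-sided, p = 0.4 for both). Between 12 hpi and 6 hpi it was −1.66 percentage points (exact permutation p = 0.1, the smallest that 3 libraries against 3 allow). None of these passed. The shares at 0 h are also not independent of the rule, which favours circRNAs that are high in the 2 shallow libraries. With every library thinned to 2305 reads, the differences were −4.50, −5.48 and −0.979 percentage points (exact permutation p = 0.2, 0.1 and 0.5). The 166 circRNAs were not chosen again for this, and 158 and 166 of them were then above 0 in 0 h replicates 1 and 2, beside 118 to 134 in the other libraries, so that thinning does not remove the effect of the rule on the 0 h share.

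The mean TPM of the 166 circRNAs over 9 libraries ran from 602 to 17606, with a median of 1481 and quartiles of 1037 and 2374. In all, 63 had a mean above 2000 TPM, 12 above 5000 and 2 above 10000. The most abundant circRNA alone took 4.91% of the TPM of the set, the first 10 took 24.6% and the first 20 took 36.9%. The set also filled the head of every library. Of the 10 highest circRNAs of a library, 9 belonged to it in 8 libraries and all 10 in 12 hpi replicate 3. Of the 50 highest, between 37 and 43 did. These are levels that the rule itself favours, since a low circRNA is easily missed in a shallow library.

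The highest level was that of novel_circ_0000148. It had 23248, 15853 and 16046 TPM at 0 h, 15002, 17204 and 18504 TPM at 6 hpi, and 15807, 19277 and 17517 TPM at 12 hpi. The 3 time points overlapped, and it ranked first in every library except 0 h replicate 2, where its rank was 2. It was followed by novel_circ_0000898, with 15287, 16281 and 10417 TPM at 0 h, 13712, 12445 and 12750 TPM at 6 hpi, and 13359, 12114 and 13474 TPM at 12 hpi. Its rank was 1 in 0 h replicate 2 and 2 in the other 8 libraries. These 2 were the only circRNAs among the 10 highest of every library. Next came novel_circ_0002074 with a mean of 9973 TPM. Its rank was 3 in 7 libraries, 15 in 0 h replicate 1 and 4 in 0 h replicate 2.

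Means of the next 12 were close to each other. They were 7919 TPM for novel_circ_0003363, 7333 for novel_circ_0005073 and 6925 for novel_circ_0003598. The means of novel_circ_0000169, novel_circ_0002793, novel_circ_0001872, novel_circ_0000318, novel_circ_0003729 and novel_circ_0001369 were 6479, 6321, 6046, 6029, 5618 and 5390 TPM. Below 5000 TPM, novel_circ_0005607, novel_circ_0005409 and novel_circ_0003263 followed with 4795, 4507 and 4303 TPM. Within libraries, novel_circ_0002074 was above novel_circ_0003363 in 8 of 9, and novel_circ_0003363 above novel_circ_0005073 in 6 of 9. From novel_circ_0005073 down, each mean lay within the range over libraries of its neighbours, and a circRNA was above the next one in 2 to 7 of 9 libraries.

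**Figure D2:**
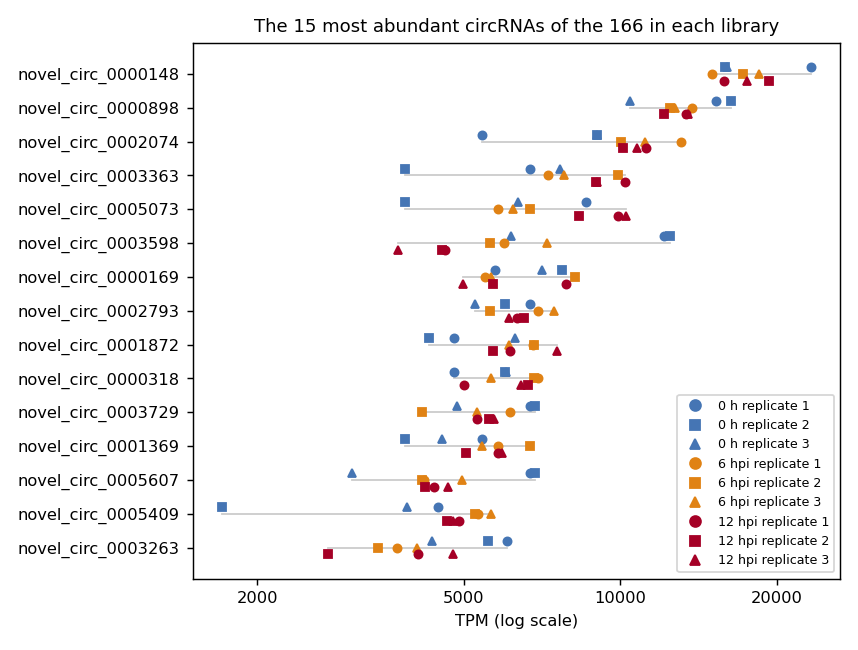
TPM (x axis, log scale) of the 15 most abundant of the 166 circRNAs in each of the 9 libraries, with colours for time points and shapes for replicates. The levels of novel_circ_0000148 lie between 15002 and 23248 TPM and are the highest in all libraries but 1, while those of novel_circ_0003598 run from 3731 TPM at 12 hpi to 12425 TPM at 0 h.

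The levels of most of the 166 circRNAs moved by several fold between libraries. The ratio of the highest to the lowest library had a median of 3.56 and ran from 1.42 to 18.4. The SD of log2 TPM over the 9 libraries had a median of 0.58, with 0.35 for the 20 most abundant circRNAs and 0.71 for the 20 least abundant. The least variable were novel_circ_0002793 (5241 to 7447 TPM, SD 0.16 on the log2 scale), novel_circ_0000898 and novel_circ_0000318 (SD 0.19 each). The most variable were novel_circ_0006065 (204 to 2571 TPM, SD 1.31), novel_circ_0002739 (207 to 3822 TPM, SD 1.26) and novel_circ_0001159 (207 to 2571 TPM, SD 1.22). Each of these 3 had its lowest value at 2 reads, so their spread includes a large counting error. In 46 of the 166 circRNAs the lowest library held 2 reads, and only 18 had 10 or more reads in every library.

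Within the set, replicates of most pairs differed by more than counting error. Across the 166 circRNAs the chi-square of the reads per degree of freedom, which is near 1 for counting error alone, was 1.83 for the 0 h libraries, 1.53 at 6 hpi and 1.38 at 12 hpi. Between 0 h replicates 1 and 2 alone it was 1.13, while the pairs of 0 h replicate 3 with replicates 1 and 2 gave 1.71 and 2.28. The pairs at 6 hpi and 12 hpi lay between 1.22 and 1.66. The rule leaves out circRNAs at 0 in any library, so these values hold for the set only. Among circRNAs not limited to the set, the pair of 0 h replicates 1 and 2 gave 2.38 (135 circRNAs, 13 of them at 0 in 1 of the 2). The other pairs within a time point then gave 1.89 to 3.04. Each pair here covers only a part of the circRNAs listed in its libraries. These values are therefore not directly comparable with those of the set. Log2 TPM of the 166 circRNAs correlated between libraries with a Pearson r of 0.719 to 0.832 in the 21 pairs without 0 h replicates 1 and 2, and of 0.521 to 0.714 in the 15 pairs with at least 1 of them. These are correlations across circRNAs, which are not independent replicates. Among the 6 LPS libraries, the median r was 0.756 in the 3 pairs within 6 hpi, 0.792 in the 3 pairs within 12 hpi and 0.768 in the 9 pairs between them. The deep 0 h replicate 3 had a median r of 0.792 with the 6 hpi libraries and of 0.776 with the 12 hpi libraries.

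The shallow libraries also held higher TPM of the set. Relative to the mean of each circRNA, the median log2 level was 0.32, 0.63 and −0.16 in the 0 h libraries, 0.03, 0.03 and −0.10 at 6 hpi, and −0.13, −0.09 and −0.10 at 12 hpi. Of the 166 circRNAs, 76 were highest in 0 h replicate 2, 33 in 0 h replicate 1 and 7 in 0 h replicate 3. Set against the range of the 6 LPS libraries, 0 h replicate 3 was inside for 127 circRNAs, above for 15 and below for 24. By contrast, 0 h replicate 2 was above that range for 87 and 0 h replicate 1 for 67. A circRNA needed 857 TPM to be in the set through 0 h replicate 2, so the comparisons with 0 h below are not independent of the rule.

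**Figure D3:**
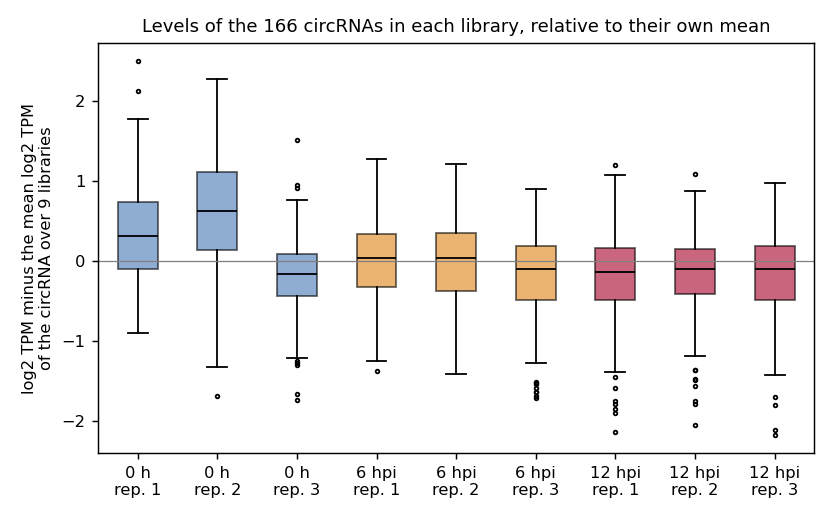
Log2 TPM of the 166 circRNAs in each library minus the mean log2 TPM of the same circRNA over 9 libraries (y axis), shown as boxes of the quartiles with whiskers to 1.5 times the box height and single points beyond. The medians are 0.32 and 0.63 in 0 h replicates 1 and 2 and lie between −0.16 and 0.03 in the other 7 libraries.

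To follow the response to LPS, 1586 circRNAs above 0 in at least 3 libraries were fitted with limma on log2(TPM + 129.4), a scale on which the change of low circRNAs is understated, and all 166 were among them. Relative to 0 h, none of the 166 changed at 6 hpi (limma, adjusted p under 0.05). Over all tested circRNAs, 0.0631% passed as higher and 0% as lower. At an unadjusted p under 0.05, 3 were higher (1.81% of the set, 4.54% of all tested) and 9 lower (5.42%, 2.27%). By the thresholds that the study set for lncRNAs, a log2 fold change beyond 1 in either direction and an unadjusted p under 0.05, 0 were higher (4.35% of all tested) and 5 were lower (3.01% of the set, 2.02% of all tested). The groups did not overlap for 6 higher circRNAs (3.61% of the set, 5.04% of all tested) and 12 lower ones (7.23%, 2.14%). The log2 fold changes of the set ran from −1.47 to 0.77, with 49 above 0 and 117 below, and a median of −0.24 beside 0.28 for all tested.

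At 12 hpi relative to 0 h, 1 of the 166 circRNAs fell, novel_circ_0003598, and none rose (limma, adjusted p under 0.05). Of all tested circRNAs, 0.0631% passed as lower and 0.0631% as higher. At an unadjusted p under 0.05, 4 were higher (2.41% of the set, 5.17% of all tested) and 8 lower (4.82%, 1.58%). By the study thresholds 1 was higher (0.602% of the set, 4.98% of all tested) and 7 were lower (4.22%, 1.51%). The groups did not overlap for 8 higher circRNAs (4.82%, 8.13%) and for 19 lower ones (11.4%, 2.27%). The log2 fold changes ran from −1.74 to 1.07, with 37 above 0 and 129 below, and a median of −0.41 beside 0.38 for all tested. Both comparisons share the 0 h libraries. The counts by the study thresholds turned with the scale and moved with 1 library. Relative to mapped reads, 25 were higher and 0 lower at 6 hpi, and 35 higher and 0 lower at 12 hpi. Over all tested the median log2 fold change was then 0.52 and 0.72. Without 0 h replicate 3, 1 was higher and 22 lower at 6 hpi, and 1 higher and 24 lower at 12 hpi. The median was then −0.40 and −0.56 for the set, beside 0.60 and 0.69 for all tested. Shares over all tested are not given for these settings, so these counts are not read as particular to the set.

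The median changes of the set relative to 0 h depended on the shallow libraries and on the scale. Leaving out 0 h replicates 1 and 2 was an alternative chosen after seeing the data, and it leaves 1 library at 0 h. The median log2 fold change of the set was then 0.11 at 6 hpi and 0.03 at 12 hpi, with 104 of 166 and 87 of 166 above 0. Over all tested circRNAs the median was −0.17 and −0.15, so the set then lay above all tested, the reverse of the main fit. Per 1000000 mapped reads of the library in place of TPM, the medians of the set were 0.80 and 0.84, beside 0.52 and 0.72 for all tested. Of the 166 circRNAs, 155 and 154 were above 0, and none passed. On that scale the set itself was at 22.0, 21.4 and 68.0 reads per 1000000 mapped reads at 0 h, 55.3, 72.4 and 68.1 at 6 hpi, and 82.7, 60.4 and 71.3 at 12 hpi. The 2 shallow libraries were below all others. The same 2 libraries were lowest for all circRNAs together, with 49.1, 43.4 and 215 reads per 1000000 mapped reads at 0 h against 153 to 245 in the LPS libraries. The mapped totals are those that the study lists. Each 0 h total was above every LPS total, although the raw reads of the groups overlapped. For the same number of junction reads, this scale therefore gives lower values at 0 h than in the LPS libraries.

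**Figure D4:**
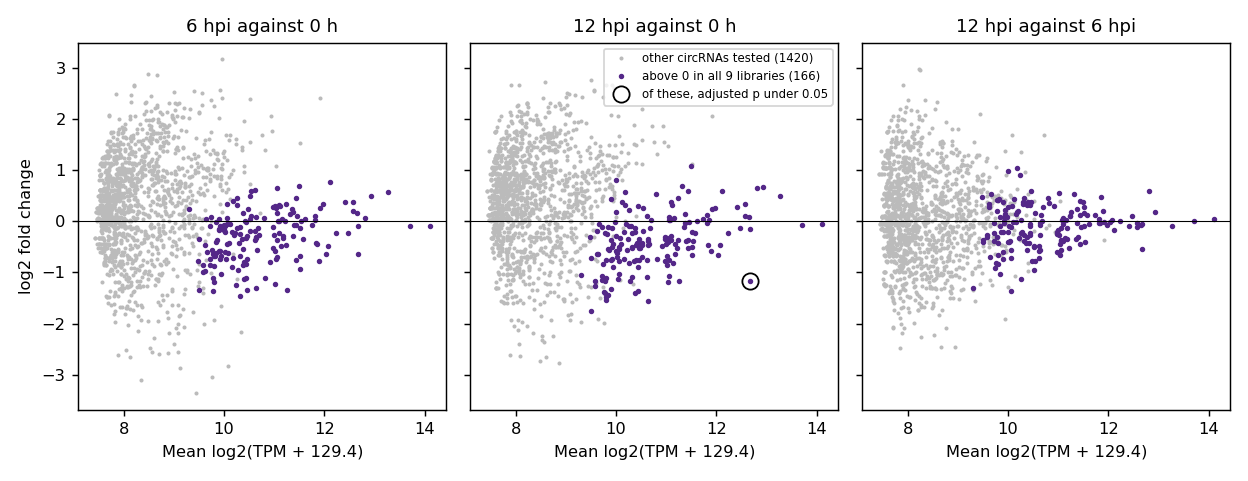
Log2 fold change on the log2(TPM + 129.4) scale (y axis) against mean level (x axis) for 1586 circRNAs in the 3 comparisons, with the 166 circRNAs in purple and the others in grey. The purple points lie mostly below 0 relative to 0 h (117 of 166 at 6 hpi and 129 of 166 at 12 hpi) and around 0 for 12 hpi relative to 6 hpi, and the circle marks novel_circ_0003598.

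The circRNA that fell, novel_circ_0003598, had 12102, 12425 and 6146 TPM at 0 h, 5969, 5612 and 7221 TPM at 6 hpi, and 4589, 4530 and 3731 TPM at 12 hpi. The 12 hpi libraries were all below the 0 h and the 6 hpi libraries, and 0 h replicate 3 lay within the range of 6 hpi. Its mean was 10224 ± 3535 TPM at 0 h, 6267 ± 845 at 6 hpi and 4283 ± 479 at 12 hpi (SD, n = 3). The log2 fold change was −1.17 (SE 0.24, limma adjusted p = 0.00456) at 12 hpi relative to 0 h, and −0.63 (adjusted p = 0.517) at 6 hpi. Its rank was 3 in 0 h replicates 1 and 2, with 38 and 29 reads, 8 in 0 h replicate 3, and between 14 and 21 at 12 hpi. These read numbers are well above the 2 reads at which a circRNA is listed. In RNA of a whole well, a lower level in every cell and fewer cells that hold the circRNA cannot be told apart.

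The call of novel_circ_0003598 depended on single libraries, while the fold change did so less. The limma adjusted p rose to 0.0546 without 6 hpi replicate 3, to 0.371 without 12 hpi replicate 2 and to 0.546 without 12 hpi replicate 3, with log2 fold changes of −1.17, −1.21 and −1.07. It also depended on the spread shared by all 9 libraries of the fit. With only the 0 h and 12 hpi libraries fitted, the limma adjusted p was 0.639, with the same log2 fold change of −1.17. With any 1 library left out, the log2 fold change lay between −1.50 and −0.995. Without 0 h replicates 1 and 2, which leaves 1 library at 0 h, the log2 fold change was −0.51. Per 1000000 mapped reads it had 0.605, 0.546 and 1.33 reads at 0 h, beside 1.13, 0.838 and 0.796 in the 12 hpi libraries. On that scale the log2 fold change turned to 0.25.

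Other circRNAs had separate groups without passing the adjusted test. In novel_circ_0003638 the values were 3822, 5570 and 3558 TPM at 0 h, 2581, 1952 and 790 TPM at 6 hpi, and 1224, 1896 and 2591 TPM at 12 hpi. All 6 LPS libraries were below the 0 h libraries. The log2 fold change was −1.33 (SE 0.48, limma adjusted p = 0.485) at 6 hpi and −1.16 (SE 0.48, adjusted p = 0.680) at 12 hpi relative to 0 h, and per 1000000 mapped reads the latter turned to 0.20.

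In the opposite direction, novel_circ_0002074 had 5414, 8997 and 8993 TPM at 0 h, 13067, 10005 and 11170 TPM at 6 hpi, and 11218, 10113 and 10779 TPM at 12 hpi. All 6 LPS libraries were above the 0 h libraries. The log2 fold change was 0.57 (SE 0.17, limma adjusted p = 0.211) at 6 hpi and 0.49 (adjusted p = 0.519) at 12 hpi. In novel_circ_0003363 the values were 6688, 3856 and 7635 TPM at 0 h, 7259, 9883 and 7785 TPM at 6 hpi, and 10198, 8954 and 9017 TPM at 12 hpi. The 12 hpi libraries lay above the 0 h libraries, and 6 hpi overlapped with 0 h. Its log2 fold change was 0.49 (limma adjusted p = 0.663) at 6 hpi and 0.67 (SE 0.20, adjusted p = 0.479) at 12 hpi. Both circRNAs kept this direction on every scale tried. Relative to mapped reads, however, 155 and 154 of the 166 circRNAs had a change above 0 at 6 hpi and 12 hpi. Centring on the median of the set lifted every circRNA relative to 0 h. The direction on these scales is thus no separate check. Without both shallow 0 h libraries, which leaves only the deep library at 0 h, the changes were smaller. The log2 fold changes at 6 hpi and 12 hpi were then 0.33 and 0.25 for novel_circ_0002074, and 0.11 and 0.29 for novel_circ_0003363.

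**Figure D5:**
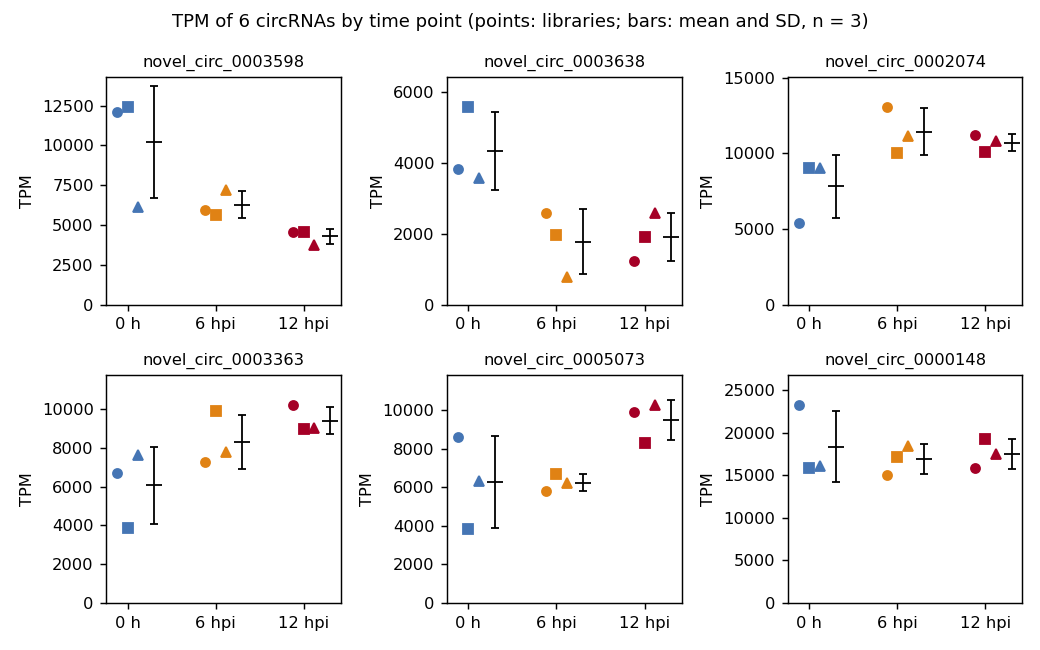
TPM (y axis, from 0) of 6 circRNAs in each library by time point (x axis), with circles, squares and triangles for replicates 1, 2 and 3 and black bars for mean and SD (n = 3). For novel_circ_0003598 the mean goes from 10224 at 0 h to 4283 at 12 hpi, while novel_circ_0000148 overlaps at all time points.

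The last comparison, 12 hpi relative to 6 hpi, sets no shallow library against another group. All 9 libraries were in 1 fit with a shared estimate of the spread, however, so the shallow libraries still enter the p-values. None of the 166 circRNAs changed (limma, adjusted p under 0.05, 0% of all tested in either direction), and at an unadjusted p under 0.05 there was 1 higher (2.08% of all tested) and 1 lower (0.946%). By the study thresholds there were 0 in either direction, beside 2.02% higher and 0.883% lower of all tested. The groups did not overlap for 7 higher circRNAs (4.22% of the set, 5.23% of all tested) and 12 lower ones (7.23%, 3.15%). The median log2 fold change was −0.06 beside 0.05 for all tested, with 67 above 0 and 99 below and a range of −1.36 to 1.04.

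Among the 5 most abundant circRNAs, only novel_circ_0005073 had 12 hpi libraries apart from those at 6 hpi. It had 8599, 3856 and 6341 TPM at 0 h, 5807, 6711 and 6206 TPM at 6 hpi, and 9892, 8322 and 10261 TPM at 12 hpi. The 12 hpi values were higher than every 6 hpi value but overlapped with 0 h. Its log2 fold change was 0.59 (SE 0.22, limma adjusted p = 0.998) relative to 6 hpi and 0.66 (adjusted p = 0.519) relative to 0 h. For novel_circ_0003598 it was −0.53 (adjusted p = 0.998) relative to 6 hpi.

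Patterns over the 9 libraries were compared by the Pearson r of log2 TPM, as a description. The circRNAs most like novel_circ_0000148 were novel_circ_0000960 (r = 0.784), novel_circ_0005647 (r = 0.743) and novel_circ_0003921 (r = 0.731). Those most like novel_circ_0000898 were novel_circ_0005607 (r = 0.932), novel_circ_0000391 (r = 0.887) and novel_circ_0005691 (r = 0.886). The points share the libraries and their depth.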

How the data were processed

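Stranded libraries of rRNA-depleted RNA were read in pairs on an Illumina instrument. The submitters' processing notes name HISAT2, Cuffdiff 2.1.1 and the genome ARS-UCD1.2, and the program that called circRNAs was not found in them. The authors deposited the circRNA levels as TPM, relative to the junction reads of the library, and the listed values sum to between 98.1% and 99.5% of 1000000. Within a tolerance of 0.05, 100% of the values above 0 are whole multiples of 1 read, from 2 reads up, and reads were taken from these steps. The lncRNA tables were not used here.

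Groups follow the time point of each title. CircRNAs above 0 in at least 3 of 9 libraries were fitted on log2(TPM + 129.4), the smallest TPM listed, with time point as the only term and a mean-variance trend (R 4.3.3, limma 3.58.1), with Benjamini-Hochberg adjustment over all 1586 in each comparison. Shares were compared by exact permutation (scipy 1.17.1). The fit was tested on simulated data. Alternatives were other pseudocounts, filters, scales and fits, a replicate block, thinning to 2305 reads and each library left out.

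The members and lists were chosen with earlier results of these data known. CircRNAs are named by level (15 highest means), spread (3 smallest and 3 largest SD), likeness to the 2 highest and change. Those named for a change without passing are mostly higher. By the study thresholds, however, 7 of the set were lower and 1 higher at 12 hpi relative to 0 h. Of those with a change, only 1 that passed and a few others are named, since the numbers are paired with no gene here. Lists of host genes and cell markers could not be applied for the same reason.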

Additional observations from a re-analysis of the deposited data

How the results depend on the processing

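The count of circRNAs of the set with an adjusted p under 0.05 depended on the processing (limma throughout). At 12 hpi relative to 0 h, where 1 passed, it was 5 with libraries centred on their median over the set. Higher were novel_circ_0000148, novel_circ_0002074, novel_circ_0003363, novel_circ_0004263 and novel_circ_0005073, the list being chosen after seeing the values. After centring, novel_circ_0003598 had a log2 fold change of −0.72 and a limma adjusted p of 0.0847. The count was 0 per 1000000 mapped reads, with only the 6 libraries compared, without the trend and after thinning. Leaving out each library in turn gave 0 to 2 (2 without 0 h replicate 1, with novel_circ_0005073 added). At 6 hpi relative to 0 h, where 0 passed, it was 2 after centring and 0 to 1 with a library left out (1 without 0 h replicate 2, novel_circ_0002074). At 12 hpi relative to 6 hpi it was 0 under all settings run. Centring moved the median change over all 1586 circRNAs, on the log2 scale, from 0.28 to 0.59 at 6 hpi and from 0.38 to 0.83 at 12 hpi relative to 0 h. For novel_circ_0003598 the fold change reversed to 0.59 per 1000000 mapped reads and to 0.019 without both shallow libraries at 6 hpi, and to 0.25 per 1000000 mapped reads at 12 hpi relative to 0 h. That of novel_circ_0003638 reversed to 0.20 at 12 hpi. The set had higher TPM in the shallow 0 h libraries, so centring on it lifted every circRNA at 6 hpi and 12 hpi relative to 0 h. The calls after centring are thus not independent of the rule and are not taken as a rise. Why the set was higher in those libraries was not tested.

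With replicate number as a block, 0 passed at 12 hpi relative to 0 h, and the adjusted p of novel_circ_0003598 was 0.0883. Deviations of same-numbered libraries from their group means correlated at −0.104 to 0.121, and those of other-numbered libraries at −0.224 to 0.134. The labels state no pairing, and these overlapping ranges cannot decide whether the numbers pair the libraries.

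The set held 341 circRNAs when 8 of 9 libraries were enough, and 55 when every library was thinned to 2305 reads. The planned count models were not run, since single reads are not listed and the deposited values are TPM. Depth limited 0 h replicates 1 and 2 most, with a median of 6 and 5 reads per circRNA of the set, beside 9.5 to 20 in the other libraries.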
